A study of Mus musculus with 12 samples.

Results

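The miRNAs of the mouse thymus were compared between 6-week-old (6W) and 2-week-old (2W) animals, the interval over which the organ grows to its full size. All animals were male C57BL/6 mice of wild type genotype with no treatment, so age was the only labelled difference, and whole thymus was used at every age. Each age had 2 small RNA libraries. The 2 libraries of 3-month-old (3M) mice entered the filter, the scaling and the shared estimate of the spread, but not the contrast between ages. The study calls the 2 libraries of an age biological replicates, the sources used here do not say whether each was 1 animal or a pool, and the p-values measure the spread between these libraries. The table held 2006 rows, of which 976 carried a mouse miRNA name, 890 carried a miRNA name without a species and a suffix (x, y or z) that the table does not explain, and 140 were the predicted miRNAs of the authors. Members were the 822 rows that passed a filter on low counts, 546 of them with a mouse name. The lowest tested row had 25 counts over the 6 libraries, and the highest row that was not tested had 58, because the filter asks for a minimum level in at least 2 libraries.

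The mature miRNA is a strand of about the length of a siRNA, cut from a hairpin precursor by Drosha and Dicer1 and loaded into an Argonaute protein. The seed, bases 2 to 8 from its 5′ end, pairs with target transcripts, so miRNAs with one seed form a family with shared potential targets. Hairpins that lie close together on one strand are often cut from one transcript, so their miRNAs tend to share a promoter. In the thymus, miR-181a is known for setting the sensitivity of the T cell receptor in thymocytes, the miR-17/92 cluster for the growth of lymphoid progenitors, and miR-205 for its place in thymic epithelial cells.

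The libraries held 9181478 to 10994118 counts. miR-181a-5p alone took 30.3% to 33.0% of the counts at 2W and 6W, so the tissue was lymphoid by its most abundant miRNA. Levels are given as CPM, counts brought to a fixed total per library with TMM factors, which centre the libraries on the bulk of the rows. Spearman's correlation over rows was 0.974 between the 2W libraries and 0.981 between the 6W libraries, and 0.949 to 0.957 between a 2W and a 6W library.

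The mature miRNAs that carry the main results are shown from RefSeq (build GRCm38.p6), with the seed in capitals. RefSeq held 443 of the 546 tested mouse-named rows by name, and all 443 had the same sequence in the table. The first set is from imprinted loci, which are read from 1 parental chromosome, and was lower at 6W. Each of its members had a seed of its own, except that the seeds of miR-379-5p and miR-411-5p differ in 1 base.
miR-335-5p: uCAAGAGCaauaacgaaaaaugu
miR-127-3p: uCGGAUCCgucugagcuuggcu
miR-434-3p: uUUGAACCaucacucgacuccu
miR-381-3p: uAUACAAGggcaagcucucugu
miR-379-5p: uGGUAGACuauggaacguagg
miR-411-5p: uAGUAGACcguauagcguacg
The second set was higher at 6W, and is given because its members belong to epithelial miRNA groups or to small seed families.
miR-205-5p: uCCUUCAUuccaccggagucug
miR-203-3p: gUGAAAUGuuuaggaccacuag
miR-200a-3p: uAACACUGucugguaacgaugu
miR-182-5p: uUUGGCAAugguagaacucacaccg
miR-204-5p: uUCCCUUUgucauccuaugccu
miR-29a-3p: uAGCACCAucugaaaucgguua
miR-99a-5p: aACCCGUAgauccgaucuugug
miR-335-5p lies at chr6:30741314-30741336 on the plus strand, in an intron of Mest. miR-127-3p lies at chr12:109592888-109592909 and miR-434-3p at chr12:109594565-109594586, both on the plus strand opposite the coding sequence of Rtl1. miR-205-5p lies at chr1:193507503-193507524 on the minus strand.

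Across all rows, more miRNAs were lower than higher at 6W. With edgeR's quasi-likelihood test and a Benjamini-Hochberg adjusted p under 0.05, here termed called, 19 of the 822 rows were higher (2.31% of those tested) and 52 were lower (6.33%). Among the 546 mouse-named rows, 10 were higher (1.83%) and 37 were lower (6.78%). At the threshold of the study, an unadjusted p under 0.05 with a log2 fold change beyond 1 in size, 28 rows were higher (3.41%) and 95 were lower (11.6%). Of the mouse-named rows 350 of 546 were below 0 (482 of all 822), and in 189 of the 822 rows both 6W libraries were above both 2W libraries. The median log2 fold change over all tested rows was -0.13, and log2 fold changes are given as 6W over 2W throughout. DESeq2 with its own size factors moved this median to -0.03 and called 41 rows higher and 50 lower, so the share of lower rows among the calls depended on the test and its scaling. The median of the mouse-named rows was -0.19 in the fit of all rows and -0.03 in a fit of those rows alone. With either 6W library left out, edgeR called 0 rows in either direction, with 128 or 132 rows at an unadjusted p under 0.05, and with 2W library 2 left out it called 7 higher and 22 lower. In these fits the lone library was assumed to vary like those of the other ages. In a bulk tissue, fewer or more cells of a type and less or more RNA per cell cannot be told apart.

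**Figure D1:**
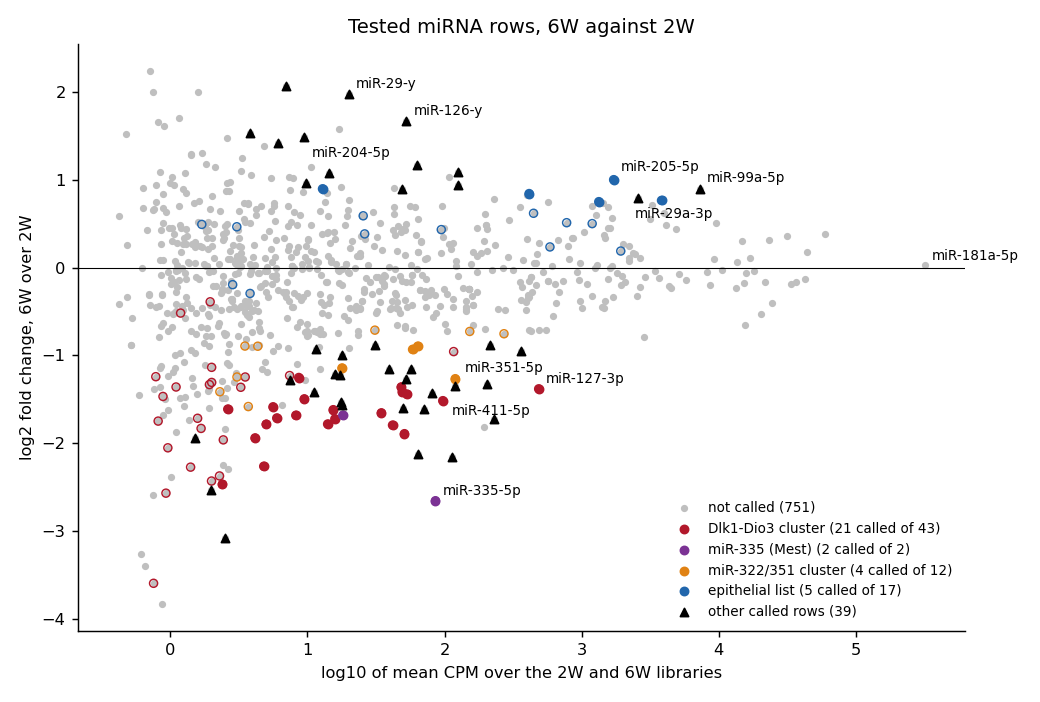
Log2 fold change of each tested row (6W over 2W) against log10 of its mean CPM over the 2W and 6W libraries. Filled coloured circles and black triangles are called rows, grey points are not called, and open coloured circles are members of the named groups that were not called; the red Dlk1-Dio3 miRNAs all sit below 0, miR-335-5p is lowest of the called mouse-named rows, and miR-181a-5p lies near 0 at the right.

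The miRNAs of the imprinted Dlk1-Dio3 domain made up 21 of the 37 mouse-named rows that fell, where those 37 were 6.78% of the mouse-named rows tested, and with miR-335 and the miR-296 and miR-298 pair, from the other imprinted loci with calls, 25 of the 37. The Dlk1-Dio3 domain holds a large miRNA cluster of placental mammals, read from the maternal chromosome 12 together with the long RNAs Meg3, Rian and Mirg, and it is known for high activity in the embryo and newborn. The table had 71 mouse-named rows of this domain, and 43 of them were tested. Of the 43, 16 would not have passed the filter on low counts without the 2W libraries, so their direction was partly set by the filter, and the same held for 67 of the 822 rows. The other 27 reached the filter level in at least 2 of the 6W and 3M libraries. All 27 had a log2 fold change below 0, from -2.26 to -0.39 with a median of -1.52, and 20 of them were called, where 310 of the 505 mouse-named rows that passed likewise were below 0 and 36 were called lower. In 26 of the 27, both 6W libraries were below both 2W libraries, as in 235 of the 755 rows of any name that passed likewise. The 28 rows with too few counts to test held at most 21 counts in a 2W or 6W library. Counted with them, the mean CPM was lower at 6W in 70 of the 71 rows, and the remaining row, miR-134-3p, had no count in the 4 libraries.

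The summed CPM of the 71 rows was 1583 and 1717 in the 2W libraries and 611 and 614 in the 6W libraries, or 1650 ± 94.7 and 613 ± 2.39 (SD, n = 2 each). The sum at 2W was thus 2.69 times that at 6W, and the ages did not overlap. The 3M libraries held 532 and 383. miR-127-3p, the most abundant member and a repressor of Rtl1, stood at 686 and 720 CPM at 2W and at 265 and 274 CPM at 6W. Its log2 fold change was -1.38 ± 0.20 (SE, as for all log2 fold changes here) with an adjusted p of 0.00767. Its neighbour miR-434-3p, which also faces Rtl1, fell from 77.0 and 83.9 CPM to 24.1 and 19.2 CPM, a log2 fold change of -1.89 ± 0.24 and an adjusted p of 0.00446. Within each age the libraries of both miRNAs lay far closer to each other than to the other age.

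miR-136-3p and miR-136-5p are the arms of another hairpin opposite Rtl1. They fell by 1.42 and 1.72 on the log2 scale, from 78.5 and 65.0 CPM to 31.9 and 21.8 CPM for the 3p arm. The miRNAs further downstream, in the part of the domain that is cut from the Mirg transcript, were lower by similar amounts. miR-381-3p fell from 71.4 and 58.4 CPM to 19.1 and 18.3 CPM, a log2 fold change of -1.80 ± 0.24. miR-411-5p had 144 CPM in each 2W library and 48.3 and 52.4 CPM at 6W, a log2 fold change of -1.52 ± 0.25. miR-379-5p, the first hairpin of that group, fell from 43.6 and 61.6 CPM to 16.5 and 16.9 CPM. miR-300-3p fell by 1.62 on the log2 scale and miR-411-3p by 1.78, with adjusted p of 0.00908 and 0.0109. No library of one age reached the range of the other for any of these.

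Both arms of a hairpin were called for miR-136, miR-409, miR-411 and miR-434. miR-541-5p was abundant but was not called: it had 154 ± 12.6 CPM at 2W and 79.3 ± 3.83 CPM at 6W (SD, n = 2 each), with a log2 fold change of -0.96 ± 0.30 and an adjusted p of 0.0749. The sparsest called member, miR-380-3p, rested on 31 and 53 counts at 2W and on 8 and 6 at 6W. The values furthest from and nearest to 0 in the domain, miR-1197-3p at -3.60 ± 1.06 and miR-540-5p at -0.39 ± 0.49, were both rows with few counts and neither was called. RefSeq placed 67 of the 71 rows, on the plus strand between chr12:109563710-109747949, a span of 184 kb. No other mouse-named row of the table lay within that span. Of the 21 calls, 10 stood without 2W library 2 and 0 without either 6W library, where 25 and 31 of the 43 had an unadjusted p under 0.05.

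**Figure D2:**
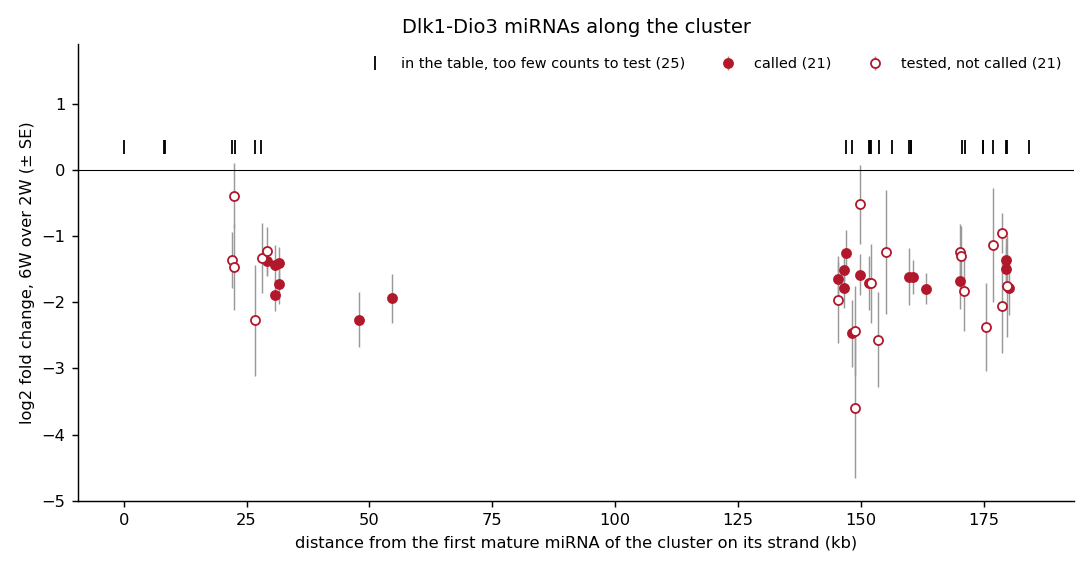
Log2 fold change (6W over 2W, ± SE) of the Dlk1-Dio3 miRNAs that RefSeq places, against the distance in kb from the first of them along the plus strand. Filled points are called rows, open points tested rows that were not called, and ticks rows with too few counts to test; all the tested rows lie below 0 in both groups of hairpins.

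miR-335 had the lowest log2 fold change among the called mouse-named rows. Its host, Mest, is an imprinted gene of growing mesodermal tissue that is read from the paternal chromosome. miR-335-5p stood at 141 and 156 CPM in the 2W libraries and at 24.1 and 22.9 CPM in the 6W libraries, or 148 ± 10.9 and 23.5 ± 0.85 CPM (SD, n = 2 each). It fell by 2.66 ± 0.22 on the log2 scale, to a level 6.31-fold below that at 2W, with an adjusted p of 0.00028, and it had 13.9 and 12.1 CPM at 3M. miR-335-3p, the other arm, fell from 22.9 and 32.4 CPM to 7.61 and 9.64 CPM, a log2 fold change of -1.68 ± 0.27. Mest mRNA, from separate ribosomal RNA-depleted libraries, was low, with 1.58 and 3.37 CPM at 2W and 0.679 and 0.485 CPM at 6W. Its log2 fold change of -2.08 ± 0.50 had an adjusted p of 0.103, so that the mRNA was lower in both 6W libraries and did not pass the test.

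Other imprinted miRNA loci differed in their size of change. miR-296 and miR-298 lie in the Gnas domain, with Nespas as their host. miR-296-3p fell from 524 and 425 CPM to 266 and 224 CPM, a log2 fold change of -0.96 ± 0.22 and an adjusted p of 0.0306. miR-296-5p fell by 1.22 on the log2 scale. miR-298-5p, with 568 and 466 CPM at 2W and 334 and 297.8 CPM at 6W, missed the threshold at an adjusted p of 0.0744. At 3M these levels were lower again, at 69.4 and 74.8 CPM for miR-296-3p, a value outside this comparison that was not tested here. miR-483-5p, from an intron of Igf2, had only 2 and 4 counts at 2W and none at 6W, and miR-675-3p, from H19, had 3 counts in each 2W library and 3 and 0 at 6W. The Sfmbt2 list, for a large cluster that is imprinted in the placenta, was drawn up by name, and RefSeq places 2 of its tested rows, miR-466k and miR-466i-3p, on chromosomes 3 and 13. Of its 71 rows 50 were tested and none was called in either direction by edgeR or DESeq2 (1 at an unadjusted p under 0.05), where 1.83% of mouse-named rows were called higher, 6.78% lower and 27.7% had such a p, with 23 above 0, 27 below 0 and a median of -0.11, which was 0.06 when only mouse-named rows set the scaling. Its rows are not independent, since miR-466a-3p, miR-466b-3p, miR-466c-3p, miR-466e-3p and miR-466p-3p held almost the same counts, and how shared reads were split between them is not given in the sources used here.

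The X-linked miR-322 to miR-351 cluster, known for its part in muscle differentiation and in holding back the cell cycle, was lower at 6W too, by a smaller amount. Of its 13 rows 12 were tested, and all 12 had a log2 fold change below 0, from -1.58 to -0.71 with a median of -0.91, where 350 of 546 mouse-named rows were below 0, and 4 were called, where 6.78% of mouse-named rows were. In all 12, both 6W libraries were below both 2W libraries, as in 276 of the 822 rows. The summed CPM of the 13 rows was 893 and 1002 at 2W and 511 and 524 at 6W. miR-351-5p fell from 165 and 173 CPM to 75.8 and 64.9 CPM, a log2 fold change of -1.27 ± 0.21 and an adjusted p of 0.00908. miR-542-3p, miR-322-5p and miR-450b-5p fell by 1.14, 0.93 and 0.90 on the log2 scale, with adjusted p of 0.0332 to 0.0399. The most abundant row, miR-322-3p, had 311 and 371 CPM at 2W and 185 and 219 CPM at 6W and missed the threshold at an adjusted p of 0.0536. The number of calls in this cluster was 0 to 2 with 1 library left out and 2 with a replicate block.

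Members of 1 seed family did not all take the same course. No seed shared by 2 or more tested mouse-named rows had calls in both directions, and none of the 69 such seeds had every row called, while 11 had at least 1 call. miR-351-5p shares its seed with miR-125a-5p and miR-125b-5p, the mammalian counterparts of the timing miRNA lin-4, as shown here with the seed in capitals.
miR-351-5p: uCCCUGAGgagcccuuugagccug
miR-125a-5p: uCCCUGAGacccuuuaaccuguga
miR-125b-5p: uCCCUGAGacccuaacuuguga
miR-125b-5p had 8389 and 7366 CPM at 2W and 12530 and 9849 CPM at 6W, and miR-125a-5p had 1055 and 773 CPM and then 1680 and 1282 CPM. Their log2 fold changes were 0.51 ± 0.24 and 0.70 ± 0.32, with adjusted p of 0.201 and 0.185, against -1.27 for miR-351-5p. In this family the 6W libraries were thus above the 2W libraries for the pair of abundant members, without passing the test, and below them for the rare one, which was called.

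The miR-15/16 family, known for holding cells out of the cycle, had 1 called row among 6 tested, where 6.78% of mouse-named rows were called lower. Its X-linked member miR-322-5p is shown with 2 abundant members.
miR-322-5p: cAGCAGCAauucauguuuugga
miR-15b-5p: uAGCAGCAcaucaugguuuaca
miR-16-5p: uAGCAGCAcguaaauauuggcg
miR-322-5p fell from 63.1 and 90.5 CPM to 41.0 and 39.5 CPM. miR-16-5p had 13750 and 18660 CPM at 2W and 14220 and 16875 CPM at 6W, which overlapped, and its log2 fold change was -0.06 ± 0.22. miR-195a-5p and miR-497a-5p, from a locus on chromosome 11, had log2 fold changes of 0.69 and 0.65 that did not pass the test.

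The miR-17/92 cluster, which has the X-linked paralogue miR-106a to miR-363, is known to drive growth of immature lymphocytes and keep the death factor Bim low. Without arms whose hairpin RefSeq places only at the other locus, 12 and 11 tested rows were left, all with log2 fold changes below 0, with medians of -0.51 and -0.50 and 1 call each, near the 6.78% of mouse-named rows called lower, of which 350 of 546 were below 0. With the DESeq2 size factors 11 and 9 of these were below 0, and with scaling on mouse-named rows 10 and 9. Rows such as miR-92a-3p and miR-19b-3p were counted in both, because those mature miRNAs come from both loci. The called rows were miR-92a-1-5p of the miR-17/92 cluster, which fell from 94.0 and 62.8 CPM to 37.0 and 33.1 CPM, and the X-linked miR-18b-5p, which fell from 250 and 309 CPM to 143 and 161 CPM. miR-18b-5p and miR-18a-5p differ only outside the seed, and are shown for that reason.
miR-18a-5p: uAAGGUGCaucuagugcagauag
miR-18b-5p: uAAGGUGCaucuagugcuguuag
miR-18a-5p had 124 and 133 CPM at 2W and 70.9 and 85.0 CPM at 6W, with a log2 fold change of -0.73 ± 0.21 and an adjusted p of 0.0603. The abundant products did not pass the test: miR-92a-3p had 25940 and 29380 CPM at 2W and 19970 and 21740 CPM at 6W, and miR-19b-3p overlapped between the ages. The third paralogue, miR-106b/25 in Mcm7, had 6 of 6 rows below 0 with a median of -0.36 (-0.21 with scaling on mouse-named rows) and no call by edgeR or DESeq2, with 2 rows at an unadjusted p under 0.05, as were 27.7% of mouse-named rows. Mcm7 mRNA, a helicase subunit of replicating cells, had a log2 fold change of -0.21 ± 0.11 with an adjusted p of 0.360. The family of miR-130 and miR-301, with the seed AGUGCAA, had 4 of 4 rows below 0. miR-130a-3p was called, at 21.3 and 26.2 CPM at 2W and 10.2 and 13.6 CPM at 6W, though not by DESeq2.

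**Figure D3:**
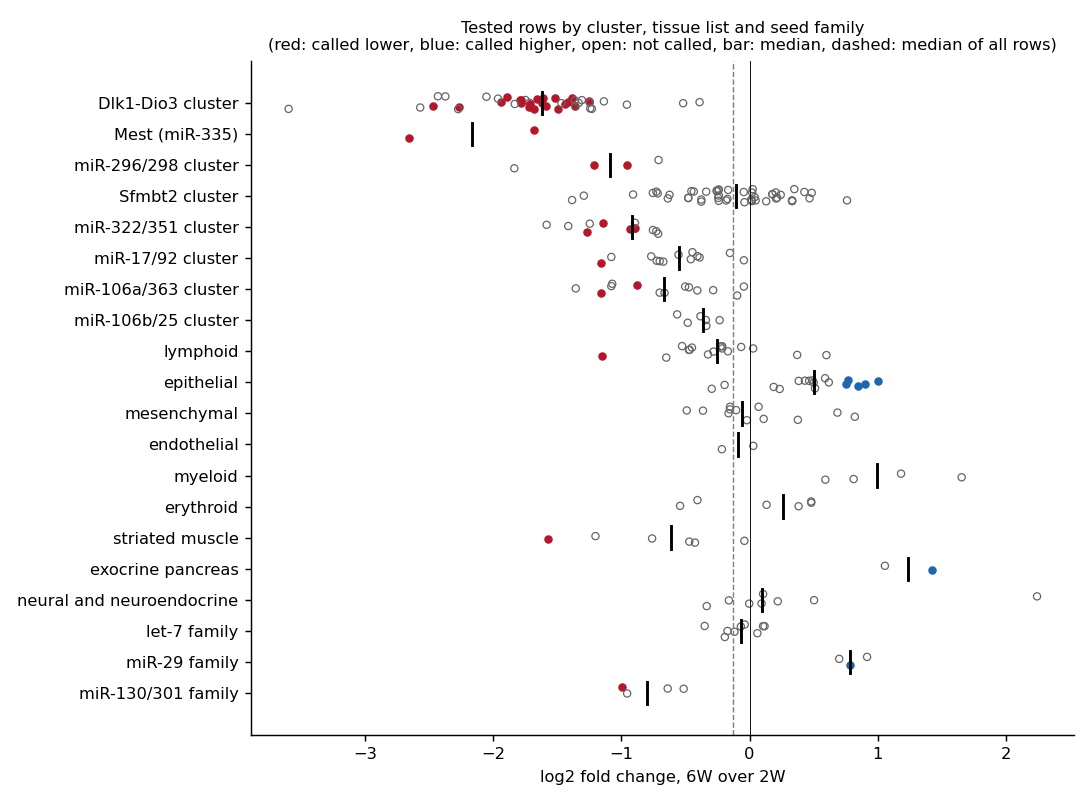
Log2 fold change (6W over 2W) of the tested rows of 20 groups, one row of points per cluster, tissue list or seed family. Red points were called lower, blue points called higher, open points not called, bars mark group medians and the dashed line the median of all rows at -0.13; the Dlk1-Dio3, Mest and miR-322 to miR-351 groups lie left of the line and the miR-29 family and 15 of the 17 epithelial rows right of it, and miR-92a-1-5p is drawn in both the miR-17/92 and the miR-106a to miR-363 group.

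Of the 10 mouse-named rows that rose, 5 were epithelial: miR-205-5p, miR-205-3p, miR-203-3p, miR-200a-3p and miR-182-5p. The list of epithelial miRNAs joins the miR-200 family and miR-203, which help to hold the epithelial state, miR-205, a miRNA of basal and stratified epithelia, and the cluster of miR-183 and miR-182. Of its 19 rows, 17 were tested, and 15 of the 17 had a log2 fold change above 0, with a median of 0.50 against -0.13 over all rows. Of the mouse-named rows, 1.83% were called higher and 196 of 546 were above 0. Thymic epithelium is the stroma that selects T cells. The summed CPM of the 19 rows was 10180 and 9286 at 2W and 15510 and 14570 at 6W, or 9731 ± 629 and 15040 ± 666 (SD, n = 2 each). The 3M libraries held 21980 and 21210.

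miR-205-5p stood at 1211 and 1070 CPM at 2W and at 2467 and 2098 CPM at 6W. It rose by 1.0015 ± 0.20 on the log2 scale with an adjusted p of 0.0164, and it reached 5632 and 4961 CPM at 3M. Its other arm, miR-205-3p, rose from 10.2 and 7.84 CPM to 16.6 and 17.0 CPM, a log2 fold change of 0.90 ± 0.23. The arms thus moved together, although the 3p arm was far rarer. miR-203-3p, known for ending the growth of epidermal progenitors, rose from 315 and 277 CPM to 528 and 535 CPM. miR-200a-3p, which represses the mesenchymal factors Zeb1 and Zeb2, rose from 2974 and 2692 CPM to 5053 and 4575 CPM, and miR-182-5p from 933 and 1056 CPM to 1695 and 1652 CPM. For each of them the lowest 6W library was above the highest 2W library.

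The rest of the epithelial list was uneven. miR-200a-3p and miR-141-3p have 1 seed and come from chromosomes 4 and 6.
miR-200a-3p: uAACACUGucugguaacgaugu
miR-141-3p: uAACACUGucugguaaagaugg
miR-141-3p had 2123 and 1482 CPM at 2W and 2108 and 2001 CPM at 6W, which overlapped, with a log2 fold change of 0.19 ± 0.25. Its cluster mate miR-200c-3p had 573 and 507 CPM and then 639 and 631 CPM, and its log2 fold change was 0.24 ± 0.21. In the chromosome 4 cluster, miR-200b-3p and miR-429-3p had log2 fold changes of 0.51 and 0.43 that did not pass the test. miR-183-5p and miR-96-5p, cut from the same transcript as miR-182-5p, had values of 0.50 and 0.62 with adjusted p of 0.152 and 0.146. The 5 epithelial calls depended on single libraries: 3 were left without 2W library 1, and 0 without any one of the other 3 libraries, and 1 stood with a replicate block.

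Other miRNAs that rose were of mixed kinds. miR-204-5p, from an intron of Trpm3 and known in the pigmented epithelia of the eye, rose from 42.0 and 34.8 CPM to 100 and 73.2 CPM, a log2 fold change of 1.17 ± 0.25. Trpm3 mRNA had a log2 fold change of 0.20 ± 0.23 and was not called. miR-211-5p, which has the seed of miR-204-5p, had 60.7 and 46.4 CPM at 2W and 71.8 and 67.2 CPM at 6W and was not called. miR-29a-3p, of a family that represses collagen transcripts and, in thymic epithelium, the interferon receptor, rose from 2044 and 1729 CPM to 3240 and 3271 CPM. Its log2 fold change was 0.79 ± 0.19 with an adjusted p of 0.0344. The other members, shown for their shared seed, had log2 fold changes of 0.70 ± 0.26 and 0.92 ± 0.27 without a call, while DESeq2 called all 3 higher.
miR-29b-3p: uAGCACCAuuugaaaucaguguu
miR-29c-3p: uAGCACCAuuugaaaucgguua
miR-99a-5p, of a family that acts on Mtor, rose from 4539 and 5623 CPM to 8454 and 10470 CPM, a log2 fold change of 0.90 ± 0.22. miR-100-5p and miR-99b-5p, with the same seed, had 0.44 ± 0.21 and 0.15 ± 0.22 and were not called. The passenger arm miR-221-5p rose by 0.89 ± 0.21, from 32.3 and 36.5 CPM to 66.2 and 61.4 CPM, while the main arm miR-221-3p overlapped between the ages at 53.9 and 84.8 CPM and 68.3 and 80.0 CPM.

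**Figure D4:**
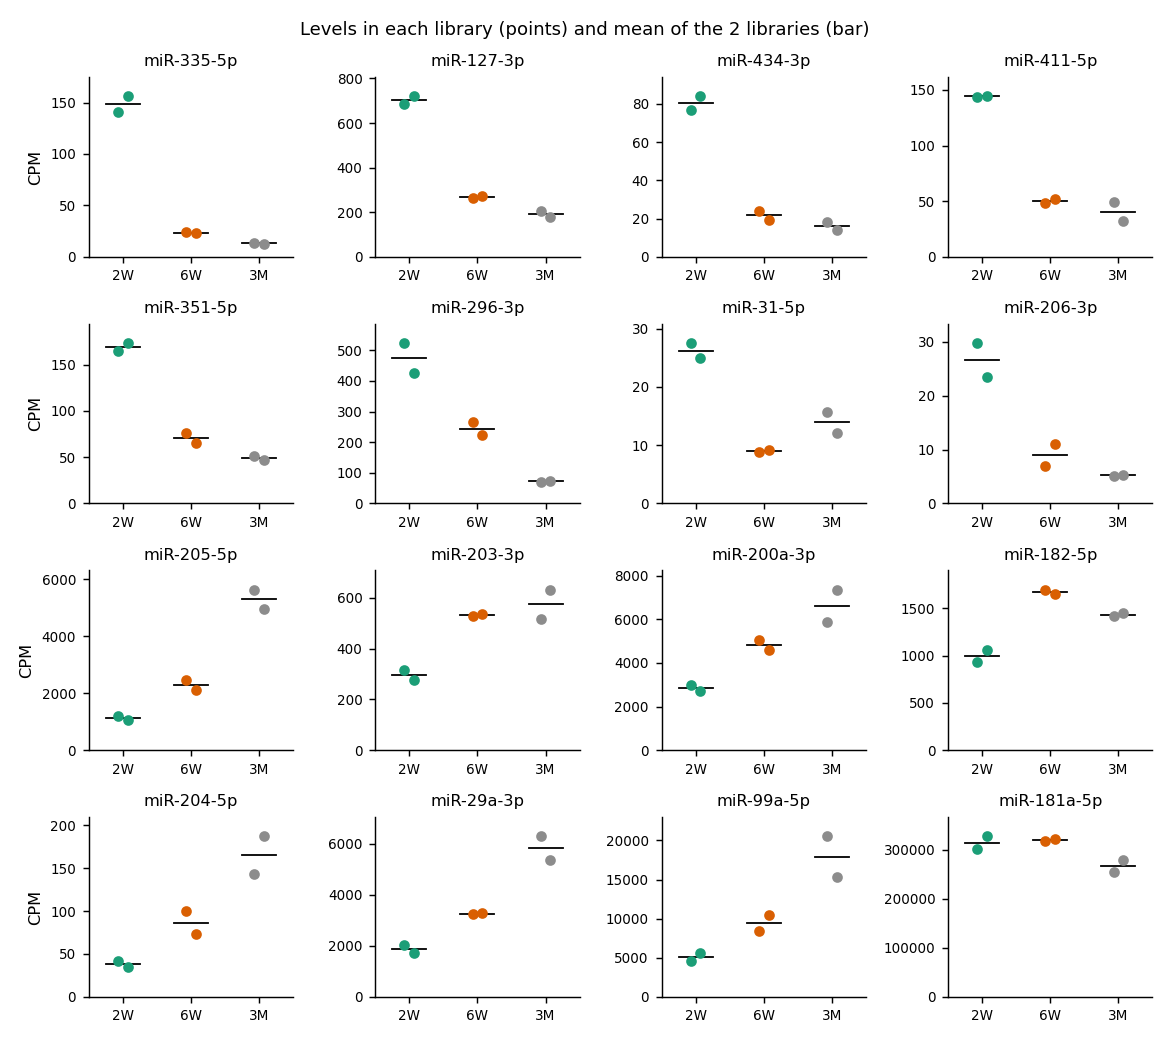
CPM of 16 miRNAs in each library (points, with the mean of the 2 libraries of an age as a bar; y axes start at 0). In all but miR-181a-5p the 2W and 6W points do not overlap, and miR-205-5p, miR-204-5p, miR-29a-3p and miR-99a-5p were higher again in the 3M libraries, which were not tested here.

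The lymphoid list had 16 of 18 rows tested, 0 called higher and 1 lower, against 6.78% of mouse-named rows called lower. Its median was -0.25, and -0.16 with the DESeq2 size factors or -0.09 with scaling on mouse-named rows. miR-181a-5p, the main thymocyte miRNA, had 300500 and 327100 CPM at 2W and 317900 and 322100 CPM at 6W, which overlapped, with a log2 fold change of 0.03 ± 0.17. The called row was miR-181b-1-3p, a passenger arm, which fell from 47.4 and 62.0 CPM to 24.4 and 24.8 CPM. miR-181b-5p had 22090 and 25575 CPM at 2W and 16360 and 16730 CPM at 6W and missed the threshold at an adjusted p of 0.0876. The levels of the haematopoietic miR-142a-5p differed more between the 2W libraries, at 54610 and 22180 CPM, than between the ages.

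The striated muscle list had 6 of 11 rows tested, all 6 below 0 (5 with the DESeq2 size factors or scaling on mouse-named rows), with 1 called, where 6.78% of mouse-named rows were called lower and 350 of 546 were below 0. The called row was miR-206-3p, a miRNA of skeletal muscle and its satellite cells, which fell from 29.7 and 23.5 CPM to 7.01 and 10.96 CPM, a log2 fold change of -1.57 ± 0.28. miR-1a-3p, the most abundant muscle miRNA, had 44.7 and 60.9 CPM at 2W and 37.8 and 38.4 CPM at 6W and was not called. miR-133a-3p had 15.9 and 15.2 CPM at 2W and 9.58 and 8.77 CPM at 6W, with an adjusted p of 0.0652, and 16.8 and 16.7 CPM at 3M. The list sum was 99.0 and 106 CPM at 2W, 59.6 and 62.7 CPM at 6W, and 72.1 and 90.3 CPM at 3M, so the sum did not overlap between 2W and 6W. Whether muscle in the dissected tissue has a part in the miR-206-3p value was not tested.

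miR-216a and miR-217 are known from acinar cells of the pancreas and were rare here. miR-216a-5p rose from 4.12 and 2.55 CPM to 9.19 and 8.77 CPM, on 26 to 93 counts a library, with an adjusted p of 0.0484. miR-217-5p, from the same cluster, had 2.01 and 3.04 CPM and then 4.84 and 5.70 CPM without a call, and the list sum over 5 rows was 6.62 and 6.27 CPM at 2W and 14.6 and 15.2 CPM at 6W. The hepatocyte miRNA miR-122-5p had 15.6 and 11.6 CPM at 2W and 6.32 and 4.82 CPM at 6W, with an adjusted p of 0.0813.

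The myeloid list had 4 of 4 rows with both 6W libraries above both 2W libraries, as in 189 of the 822 rows, and a median log2 fold change of 0.998, and none of its 4 was called by edgeR or DESeq2, with 3 at an unadjusted p under 0.05, as were 27.7% of mouse-named rows (39 of 546 higher). miR-223-3p, the main granulocyte miRNA, had 19.9 and 20.3 CPM at 2W and 27.7 and 32.9 CPM at 6W, with a log2 fold change of 0.59 ± 0.22 and an adjusted p of 0.110. miR-511-3p, from an intron of the macrophage receptor gene Mrc1, had 0.671 and 1.57 CPM and then 2.37 and 2.74 CPM. No row was called by edgeR in the endothelial list (2 tested), the erythroid list (6), the mesenchymal list (12), the neural and neuroendocrine list (8) or the let-7 family (9), whose medians were -0.09, 0.26, -0.06, 0.10 and -0.07. With scaling on mouse-named rows these were 0.07, 0.42, 0.09, 0.26 and 0.09, so the endothelial, mesenchymal and let-7 medians had no stable sign. At an unadjusted p under 0.05 these lists held 2 rows, both mesenchymal and higher, where 27.7% of mouse-named rows passed that level, 1.83% were called higher and 6.78% lower, and DESeq2 called 1 row of them, also mesenchymal and higher. Among the most abundant rows not yet given, miR-143-3p, miR-26a-5p, miR-30e-5p, let-7f-5p, miR-27b-3p, miR-191-5p and miR-128-3p had log2 fold changes between -0.19 and 0.38 and none was called.

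Of the called mouse-named rows, 3 belonged to no list, and all 3 were lower at 6W. miR-210-3p, the main miRNA induced by low oxygen, fell from 67.2 and 79.9 CPM to 31.1 and 29.8 CPM, a log2 fold change of -1.27 ± 0.24. miR-31-5p fell from 27.5 and 24.9 CPM to 8.89 and 9.21 CPM, a log2 fold change of -1.53 ± 0.24 and an adjusted p of 0.00908. miR-346-5p fell from 13.5 and 19.1 CPM to 6.12 and 6.03 CPM.
miR-210-3p: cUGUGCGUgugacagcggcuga
miR-31-5p: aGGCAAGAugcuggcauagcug

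Of the 276 tested rows with no mouse name, 213 started like a mouse-named row, sharing at least 16 bases with starts at most 2 bases apart. All 9 of the rows with other names that rose and 5 of the 13 that fell were of this kind. Among the lower ones, miR-127-y at -1.35 was close to miR-127-3p at -1.38, and miR-322-y at -1.94 was furthest from its row, miR-322-3p at -0.75. Several of the higher ones lay above their mouse-named rows. The pairs are given in DNA letters as the table has them, with the 3′ bases that do not continue along the RefSeq hairpin in capitals, for 5 of the 6 higher rows with only A added. Of the other 3 higher rows, miR-1843-x had only U added, and miR-126-x and miR-145-y had no hairpin to compare.
miR-126-y: tcgtaccgtgagtaataatgAA
miR-126a-3p: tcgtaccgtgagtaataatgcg
miR-29-y: tagcaccatctgaaatcggAA
miR-29a-3p: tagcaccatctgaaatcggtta
miR-10-x: taccctgtagaaccgaatttgtAA
miR-10b-5p: taccctgtagaaccgaatttgtg
miR-125-x: tccctgagaccctaacttgtgaAA
miR-125b-5p: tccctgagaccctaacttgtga
miR-205-x: tccttcattccaccggagtctgAA
miR-205-5p: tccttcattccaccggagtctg

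miR-126-y rose from 27.6 and 22.6 CPM to 96.6 and 63.8 CPM, a log2 fold change of 1.67 ± 0.28 and an adjusted p of 0.00908. miR-126a-3p, the endothelial miRNA from an intron of Egfl7 that it starts like, had 2981 and 2758 CPM and then 2645 and 2296 CPM, and its log2 fold change was -0.22 ± 0.19. The variant was 0.918% and 0.814% of the summed CPM of the pair in the 2W libraries, 3.52% and 2.70% in the 6W libraries, and 3.55% and 4.21% in the 3M libraries. miR-29-y rose from 9.98 and 6.27 CPM to 32.5 and 31.7 CPM, and its share of the pair was 0.486% and 0.361% at 2W and 0.993% and 0.959% at 6W. miR-10-x rose from 1.73 and 3.63 CPM to 9.98 and 12.6 CPM, on 18 to 115 counts, beside miR-10b-5p at 0.71 ± 0.25. miR-203-y had only A added and rose from 4.988 and 4.998 CPM to 11.95 and 16.11 CPM, a log2 fold change of 1.49 ± 0.28, beside miR-203-3p at 0.84 ± 0.21. In contrast, miR-205-x rose by 0.94 beside 1.0015 for miR-205-5p, and its share of the pair was 6.93% and 7.13% at 2W and 6.96% and 6.50% at 6W. The difference within a pair was given for rows seen to rise and was not tested.

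Over all 56 tested rows with only A added, 37 had a higher log2 fold change than the mouse-named row they start like, with a median difference of 0.22. Of the 56, 6 were called higher and 1 lower, where 2.31% of all tested rows were called higher and 6.33% lower. Over the 68 rows with only U added whose mouse-named row was tested, the median difference was 0.15, and over all 208 such pairs it was 0.18. Of the 208, 141 had a difference above 0. Of all 70 added-U rows, 1 was called higher and 1 lower. The share of added-A rows in the summed CPM of their pairs was 2.63% and 2.48% at 2W and 2.81% and 2.40% at 6W, which overlapped. The differences of miR-126-y and miR-29-y from their mouse-named rows, 1.89 and 1.19, were larger than the median of the added-A rows. The summed share rests mostly on the abundant rows, so it does not describe added-A rows as a group.

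**Figure D5:**
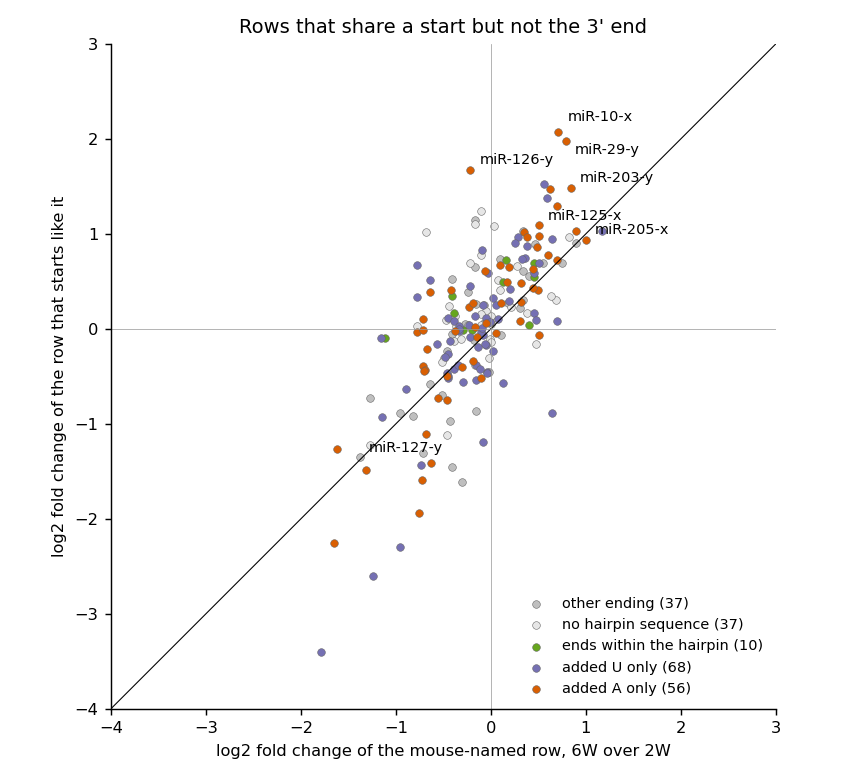
Log2 fold change (6W over 2W) of each tested row that starts like a mouse-named row, against that of the mouse-named row, coloured by how its 3′ end differs from the RefSeq hairpin. Points on the diagonal moved like their mouse-named row; miR-126-y, miR-29-y and miR-10-x lie above it and miR-205-x and miR-127-y close to it.

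Of the other 8 called rows of this class that fell, which did not start like a mouse-named row by that rule, 7 ended in the letters CCA, with which mature tRNAs end. The remaining one, miR-377-y, had a log2 fold change of -3.08 ± 0.74. The mouse-named miR-377-3p of the Dlk1-Dio3 domain had -1.14 ± 0.87 and was not called. In all, 18 tested rows without a mouse-named start ended so, 18 to 22 bases long, with 16 distinct sequences. All 18 had log2 fold changes below 0 with a median of -1.24, where 482 of all 822 rows were below 0. Of the 18, 7 were called lower, where 6.33% of all rows were. The 45 rows with another end had a median of -0.22, with 25 below 0 and 3 called lower by edgeR, 2 of them predicted miRNAs of the authors. The predicted miRNA with the smaller p fell from 3.17 and 3.63 CPM to 0.395 and 0.767 CPM, a log2 fold change of -2.54 ± 0.53 and an adjusted p of 0.0221. The sequences of the 7 called rows ending in CCA, with those letters in capitals, are shown because some stand in the table under a pair of names.
miR-7550-x and miR-11202-x: ttccggctcgaaggaCCA
miR-2779-z: tttccggctcgaaggaCCA
miR-9993-y and miR-9995-y: gatctcggtggaacctCCA
miR-9277-y: atcctgccgactacgCCA
miR-1260-x: atcccaccgctgccaCCA
miR-2779-z had 405 and 294 CPM at 2W, 104 and 108 CPM at 6W, and 76.3 and 208 CPM at 3M. The summed CPM of the 18 rows was 7953 and 4873 at 2W and 3641 and 3138 at 6W, so the 2W libraries differed from each other by more than the lower of them differed from the 6W libraries. How reads were split between rows with the same sequence is not given in the sources used here, so each such row's own level is uncertain. Whether these rows are miRNAs or fragments of tRNA was not tested.

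The transcripts that make miRNAs were read from the mRNA table of separate libraries of the same ages. Of 14805 gene sums tested there, 257 were called (1.74%). Of the 14 tested host or neighbouring genes, 1 was called. Mrc1, the host of miR-511 and a marker of resident macrophages, rose from 42.0 and 38.3 CPM to 74.8 and 66.7 CPM, a log2 fold change of 0.82 ± 0.12 and an adjusted p of 0.0359. Igf2, the growth factor gene that holds miR-483, had 6.77 and 9.32 CPM at 2W and 2.08 and 2.52 CPM at 6W, with a log2 fold change of -1.80 ± 0.32 and an adjusted p of 0.0506, and DESeq2 called it lower at an adjusted p of 0.00095. Dlk1, at the edge of the chromosome 12 domain, had 1.45 and 1.10 CPM at 2W and 0.679 and 0.927 CPM at 6W and was not called. Sfmbt2, Gnas and Egfl7 had log2 fold changes of -0.06, -0.03 and -0.24 without a call.

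The table splits the uridylating enzyme Tut7 over its current and older symbols, Tut7 and Zcchc6, with log2 fold changes of -0.52 and 0.14, so this gene was left out. None of the other 18 tested genes for processing and action of miRNAs was called by edgeR, and 15 of the 18 had log2 fold changes below 0 with a median of -0.19, against -0.01 over all genes. Drosha, which cuts the hairpin from its transcript, had 103 and 100 CPM at 2W and 105 and 98.7 CPM at 6W, which overlapped. Dicer1, which removes the loop, had 147 and 168 CPM and then 126 and 123 CPM, a log2 fold change of -0.34 ± 0.11 and an adjusted p of 0.187. Ago2 and Ago3, which carry the mature strand, had log2 fold changes of -0.18 and -0.60 with adjusted p of 0.352 and 0.193. Of the 18, 7 had an unadjusted p under 0.05, as did 18.9% of all gene sums. DESeq2 called 1 of them, the helicase Ddx17, lower, and edgeR on only the 4 libraries compared called Ago3 lower at an adjusted p of 0.047. With any one 2W or 6W library left out, and with a replicate block, edgeR called 0 of the host and processing genes.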

How the data were processed

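Small RNA of 18 to 30 nt from whole thymus was sequenced by the authors, and the deposited table gives counts per row and library and TPM, which were used only to compare totals (the table held 90.6% to 92.3% of the total that the TPM imply). The submitters' processing notes name Bowtie 0.12.2 and mm8 without a role, and the counting rules are not given in the sources used here. For mRNA, expected counts per transcript were deposited by the authors from separate ribosomal RNA-depleted libraries. These were rounded and summed by gene symbol. The authors' own fold change and p-value columns, and the circRNA table, were not used. The lncRNA table, planned as a further readout of host transcripts, was not used because no symbols could be joined to its identifiers.

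Counts were fitted with edgeR 4.0.16 (R 4.3.3; filterByExpr, TMM, quasi-likelihood test, prior count 0.125) over the 6 libraries of 3 ages, with the contrast 6W minus 2W and Benjamini-Hochberg adjustment over all rows tested. The SE is the log2 fold change divided by the square root of F. An exact permutation of 2 against 2 libraries cannot go below p = 0.333 and was not used. The fit was tested on simulated counts. DESeq2 1.42.0, other scalings and filters, a replicate block and leaving out each library were alternatives. Coordinates and hairpins are of RefSeq GRCm38.p6, and no coordinate came from the tables. A variant row starts like a mouse-named row when they share at least 16 starting bases at an offset of at most 2.

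The members and lists were chosen with earlier results of these data known. Named were the called, non-overlapping rows with the smallest p (12 per direction with a mouse name, 4 with other names), the 10 most abundant rows and members of the lists. miR-210-3p, miR-346-5p and, beyond the 4 per direction, other variant rows and rows ending in CCA are named outside that rule, chosen after their values were seen. PCR copies were not marked by molecular identifiers.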

Additional observations from a re-analysis of the deposited data

How the results depend on the processing

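Of the 71 called rows, 65 stayed called with DESeq2, 70 with total counts as the scaling, 67 without the filter, 65 with only the 4 libraries compared and 71 with a prior count of 2, and none turned direction under any alternative tried. Rows called higher (19) numbered 41 with DESeq2 and 43 without the filter. A fit of only the 546 mouse-named rows called 25 lower, where the fit of all rows called 37 of the same 546. At the threshold of the study it gave 18 higher and 56 lower, against 9 and 68 of these rows, and 1 miR-322 to miR-351 row was called (4). Without the filter 48 rows were higher at that threshold. With rows summed by the start of their sequence, chosen after seeing the data, 17 were higher at that threshold and 2 miR-322 to miR-351 rows were called. With 1 library left out, calls ranged from 0 to 20 higher and 0 to 38 lower, rows past the threshold of the study from 18 to 47 higher and 71 to 82 lower, Dlk1-Dio3 calls from 0 to 19, miR-322 to miR-351 calls from 0 to 2, epithelial calls from 0 to 3, and host and processing genes were 0 throughout. The smallest adjusted p was 0.0536 without 6W library 1 and 0.0619 without 6W library 2, so no call stood there. Host and processing genes called (1) were 3 with DESeq2, 2 with total counts, 2 without the filter and 3 with only the libraries compared. The median of the miR-15/16 family, -0.13, became 0.0279 with only mouse-named rows. Leaving out rows that RefSeq places at another locus, chosen after seeing the data, moved the medians of the miR-17/92 and miR-106a to miR-363 lists from -0.55 to -0.51 and from -0.66 to -0.50 and left that of the Sfmbt2 list at -0.11. The causes were not tested. Depth limits the rows of few counts, such as the 28 untested Dlk1-Dio3 rows.

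Deviations of same-numbered libraries correlated at 0.30 between 2W and 6W, -0.21 between 2W and 3M and -0.08 between 6W and 3M over 822 rows. With 2 libraries per age, these correlations cannot decide whether the replicate numbers pair the samples. A replicate block left 12 rows called higher and 37 lower, 2 in the miR-322 to miR-351 cluster, 1 in the epithelial list and 0 host or processing genes.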
